A study of Mus musculus with 2 samples.

Results

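Nodal signalling and its feedback genes were examined in R1 ES cells (a line of mouse embryonic stem cells) that had been kept for 72 h without LIF, which supports the undifferentiated state of such cells. The gene set holds 10 genes chosen by symbol from the 21935 gene symbols of the expression tables, and each has 1 RefSeq entry. *Nodal* encodes the ligand, *Tdgf1* the co-receptor, *Acvr1b* and *Acvr2b* the receptors, *Smad2*, *Smad3* and *Foxh1* the transcription factors, and *Lefty1*, *Lefty2* and *Smad7* the feedback inhibitors. Polyadenylated RNA was sequenced from 1 library of shLuc ES cells, the control that carried a short hairpin RNA (shRNA) against luciferase, and 1 library of shKdm5b ES cells, in which a lentiviral shRNA depletes the transcripts of the H3K4 demethylase KDM5B. Both lines were infected with lentivirus, selected with puromycin and expanded on irradiated fibroblast feeders, and the labels describe differentiation in low-attachment dishes that let the cells form aggregates. The comparison asks how depletion of KDM5B bears on gene expression during differentiation. With a single library a condition, no difference is backed by replicates, and an effect of the condition cannot be told apart from one of the culture or library. Values given for shLuc or shKdm5b cells are those of the 1 library each.

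Nodal is a secreted ligand of the transforming growth factor beta superfamily. It binds type I and type II activin receptors together with a co-receptor of the EGF-CFC family, and the receptors phosphorylate SMAD2 and SMAD3, which enter the nucleus and act with the forkhead factor FOXH1. Nodal signalling switches on *Nodal* itself and also its secreted inhibitors of the Lefty family, and it induces the inhibitory *Smad7* in many cells, so that the pathway carries both positive and negative feedback. In the embryo it maintains the epiblast and patterns the primitive streak, endoderm and left-right axis, and ES cells have it active in culture.

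*Kdm5b*, the target of the hairpin, had an RPKM (the reads on an entry, normalized to its length and to all aligned reads) of 104 in shLuc cells and 3.01 in shKdm5b cells, a log2 ratio of -5.07 with a 95% counting interval of -5.20 to -5.04. The libraries held 78172698 and 72702698 aligned reads of 50 bases. At this depth, the least covered of the 10 genes, *Acvr2b*, had 1380 reads in shLuc cells and 557 reads in shKdm5b cells. Log2 ratios were taken as shKdm5b over shLuc on the log2(RPKM + 0.1) scale, and a gene counted as higher or lower when it differed by more than 1.5-fold and had an RPKM above 1 in at least 1 library. The counting intervals are exact Clopper-Pearson intervals on the reads of the gene in both libraries, and they cover counting error only, not variation between cultures. Such values come from bulk RNA, in which fewer cells of a type and less RNA per cell cannot be told apart.

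Of the 10 genes, all had an RPKM above 1, 4 were lower in shKdm5b cells and 0 were higher. Among all 11804 genes above that RPKM, 32.0% were lower and 16.3% were higher, so that 48.3% of all genes passed the same thresholds in either direction. The 4 lower genes were the receptors *Acvr1b* and *Acvr2b* and the inhibitors *Lefty1* and *Smad7*. The ligand, the co-receptor, the inhibitor *Lefty2* and the 3 transcription factors stayed within 1.5-fold. The 10 genes had a median log2 ratio of -0.27, and that of all genes above the RPKM threshold was -0.21. Scaling by DESeq2 size factors, which assume that most genes do not differ, took a shift of -0.24 out of every log2 ratio and left 3 lower genes, *Smad7*, *Acvr1b* and *Acvr2b*. Under that scaling 47.3% of all genes passed, 24.5% higher and 22.8% lower. GC-corrected values, given beside a result where they change it, have a curve of the log2 ratio over transcript GC content subtracted.

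**Figure D1:**
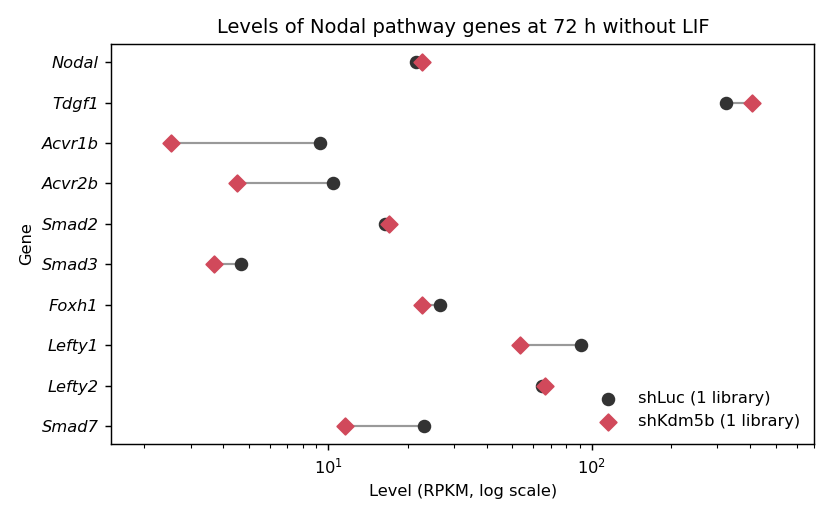
Levels of the 10 genes as RPKM (x axis, log scale) in shLuc cells (circles) and the shKdm5b library (diamonds), 1 library each, with a line joining the values of a gene. *Acvr1b*, *Acvr2b*, *Lefty1* and *Smad7* lie further left in shKdm5b cells, and *Tdgf1* has the highest level in both, at 323 and 406 RPKM.

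*Nodal*, on chromosome 10 from 61417972 to 61425338 (GRCm38, 3 exons), had 3519 reads and an RPKM of 21.5 in shLuc cells, and 3449 reads and an RPKM of 22.7 in shKdm5b cells. The log2 ratio was 0.075, with a counting interval of 0.0075 to 0.14. The RPKM of the ligand was thus close in the libraries, but its GC-corrected log2 ratio was 0.71, past 1.5-fold. *Nodal* ranked at percentile 74.7 of the levels of genes above the RPKM threshold in shLuc cells and at percentile 76.9 in shKdm5b cells.

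*Tdgf1*, on chromosome 9 from 110939603 to 110946158, encodes CRIPTO, the membrane-anchored co-receptor that Nodal needs to engage its receptors. It was the most abundant of the 10 genes, with an RPKM of 323 (48598 reads) in shLuc cells and 406 (56941 reads) in shKdm5b cells. Its log2 ratio of 0.33 (0.32 to 0.35) was the highest of the set without GC correction, at percentile 74.8 of all genes, and lay within 1.5-fold, also at 0.57 under DESeq2 scaling. GC-corrected, it was 0.17, below the values of *Nodal*, *Foxh1* and *Lefty2*. Of its 50-base windows 12.5% also occur in the pseudogene *Tdgf1-ps1*, so reads could be shared with that locus. Per length and without correction, *Tdgf1* stood at 15.0 times the level of *Nodal* in shLuc cells and at 17.9 times in shKdm5b cells. This rise was not seen after the GC correction, where the log2 ratio of *Tdgf1* (0.17) was below that of *Nodal* (0.71).

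The sequences just before the annotated starts of the ligand, the co-receptor and both receptors are shown because these genes stand at the top of the pathway and hold both the highest and the lowest uncorrected log2 ratio of the set. RefSeq promoter windows (GRCm38.p6) matched 5 of the 10 genes. Each sequence is the 250 bases before the RefSeq start, which can differ from the GENCODE start used for the gene coordinates, so that the last 60 bases of the *Acvr2b* window and the last 5 of the *Acvr1b* window lie inside the GENCODE gene. The windows are printed 5′ to 3′ on the strand of the gene, and capitals mark letters that match AATNNACA (a core of the FOXH1 motif), CAGAC (the SMAD box), GGCGC (a GC-rich SMAD box), TATAAA or ATGCAAAT (the POU octamer) on either strand.
Nodal, chr10:61417722-61417971, plus strand: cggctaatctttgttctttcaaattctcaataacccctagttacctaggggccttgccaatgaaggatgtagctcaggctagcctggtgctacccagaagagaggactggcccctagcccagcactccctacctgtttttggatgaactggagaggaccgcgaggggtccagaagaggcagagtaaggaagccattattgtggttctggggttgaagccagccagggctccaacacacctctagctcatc
Tdgf1, chr9:110946159-110946408, minus strand: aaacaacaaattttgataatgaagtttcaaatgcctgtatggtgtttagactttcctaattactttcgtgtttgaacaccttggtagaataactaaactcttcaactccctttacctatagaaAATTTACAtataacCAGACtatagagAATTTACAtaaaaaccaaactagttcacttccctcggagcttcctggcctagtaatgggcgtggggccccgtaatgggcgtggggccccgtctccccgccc
Acvr1b, chr15:101173822-101174071, plus strand: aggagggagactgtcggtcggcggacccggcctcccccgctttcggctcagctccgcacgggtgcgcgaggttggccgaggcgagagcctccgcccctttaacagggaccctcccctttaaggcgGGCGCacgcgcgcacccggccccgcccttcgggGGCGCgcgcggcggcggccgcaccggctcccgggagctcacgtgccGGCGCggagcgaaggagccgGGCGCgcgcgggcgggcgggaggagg
Acvr2b, chr9:119401928-119402177, plus strand: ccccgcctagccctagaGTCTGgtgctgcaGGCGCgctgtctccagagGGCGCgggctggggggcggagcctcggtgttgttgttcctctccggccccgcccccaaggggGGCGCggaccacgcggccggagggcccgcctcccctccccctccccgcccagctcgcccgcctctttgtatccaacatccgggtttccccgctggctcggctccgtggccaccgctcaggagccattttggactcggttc

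The 4 windows differ widely in composition. The *Acvr1b* window had a GC content of 78.8% and 42 CpG dinucleotides, and the *Acvr2b* window had 72.8% and 24, against a median of 6 CpG over 32851 promoter windows of the same length. The *Nodal* window had 3 CpG dinucleotides and the *Tdgf1* window had 7. The *Tdgf1* window held 2 matches to AATNNACA, which begin 127 and 101 bases before the start, with a CAGAC match that begins 113 bases before the start lying between them. The *Acvr2b* window held 1 CAGAC match. AATNNACA was present in 10.9% of all windows and CAGAC in 42.2%. GGCGC matched 4 times in the *Acvr1b* window and 3 times in the *Acvr2b* window, and was present in 32.0% of all windows. TATAAA (12.4% of windows) and ATGCAAAT (1.60%) matched in none of the 5 windows, and the windows of *Nodal* and *Smad3* held no match to any of the 5 motifs. The windows are short, and enhancers within the genes or further away were not examined.

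Without GC correction, the receptors gave the largest differences of the set. *Acvr1b*, which encodes the type I receptor ALK4 and lies on chromosome 15 from 101174067 to 101213684 (9 exons), had 2384 reads and an RPKM of 9.31 in shLuc cells, and 602 reads and an RPKM of 2.53 in shKdm5b cells. Its level in shKdm5b cells was 27.2% of that in shLuc cells, a log2 ratio of -1.84 (-2.01 to -1.75). This log2 ratio lay at percentile 2.62 of all genes above the RPKM threshold. *Acvr2b*, which encodes a type II receptor and lies on chromosome 9 from 119402118 to 119434995 (10 exons), had 1380 reads and an RPKM of 10.4 in shLuc cells, and 557 reads and an RPKM of 4.50 in shKdm5b cells. Its log2 ratio was -1.19 (-1.35 to -1.06), at percentile 11.5 of all genes. The counting intervals of *Acvr1b* and *Acvr2b* do not overlap. Without correction, both were lower in shKdm5b cells, *Acvr1b* by the larger factor. After the GC correction *Acvr1b* had -1.38, and *Acvr2b* had -0.21, within 1.5-fold.

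Of the 6 other receptor genes listed, 3 had an RPKM above 1, of which 1 was higher and 0 were lower. *Acvr2a*, the other type II receptor, had an RPKM of 4.87 in shLuc cells and 6.72 in shKdm5b cells, a log2 ratio of 0.46 (0.38 to 0.55) that passed 1.5-fold under DESeq2 scaling, at 0.69, and was -0.019 after the GC correction. Part of its transcript (7.84% of its bases) overlaps exons of *Orc4* on the other strand. Its RPKM was 0.470 times that of *Acvr2b* in shLuc cells and 1.49 times in shKdm5b cells, where the GC-corrected ratio of the genes was 0.538, so the order changed only without the correction. *Acvr1c*, which encodes the type I receptor ALK7, had 0 reads in both libraries. *Cfc1*, the other EGF-CFC co-receptor, had 31 reads in shLuc cells and 27 reads in shKdm5b cells, so a difference was not detectable at this depth (-0.89 to 0.70), and 27.8% of its transcript overlaps exons of *Prss40*. *Tgfbr3*, the co-receptor betaglycan, was higher, with an RPKM of 0.795 and 1.33 and a log2 ratio of 0.67 (0.55 to 0.93).

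Among the transcription factors, *Smad2* had an RPKM of 16.5 (3236 reads) in shLuc cells and 17.0 (3100 reads) in shKdm5b cells. Its log2 ratio was 0.042, and it was the only one of the 10 genes whose counting interval (-0.029 to 0.11) held 0. *Smad3*, on chromosome 9 from 63646767 to 63757994 (9 exons), was the lowest of the 10 genes in shLuc cells, with an RPKM of 4.65 (1851 reads), and had 3.70 (1369 reads) in shKdm5b cells, a log2 ratio of -0.32 (-0.43 to -0.23). Without correction, *Smad2* exceeded *Smad3* per length by 3.54 times in shLuc cells and by 4.59 times in shKdm5b cells. This rise was not seen after the GC correction, where the log2 ratio of *Smad2* (-0.14) was below that of *Smad3* (0.12). *Foxh1*, on chromosome 15 from 76668225 to 76669948 (3 exons), had an RPKM of 26.5 (2498 reads) in shLuc cells and 22.7 (1997 reads) in shKdm5b cells, a log2 ratio of -0.22 (-0.30 to -0.13). *Smad4*, the common partner of the activated SMADs, had an RPKM of 32.5 (8500 reads) and 42.4 (10304 reads), a log2 ratio of 0.38 (0.34 to 0.42). All 4 genes stayed within 1.5-fold when scaled to total reads. *Smad4* passed it under DESeq2 scaling, at 0.62, and with GC content and length corrected, at 0.67. After the GC correction *Foxh1* passed it in the other direction, at 0.60, and *Smad3* (0.12) and *Smad2* (-0.14) changed sign within it.

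The inhibitors *Lefty1* and *Lefty2* are neighbours on chromosome 1, *Lefty2* from 180893108 to 180899103 and *Lefty1* from 180935022 to 180938400 (4 exons each), and they encode closely related proteins that block Nodal and its co-receptor. Their coding sequences have 1104 bases each and 91.8% identity (1014 identical bases). Reads from coding sequence can be assigned to 1 of the genes only where they cover a difference.

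*Lefty1* had 11374 reads and an RPKM of 90.7 in shLuc cells, and 6255 reads and an RPKM of 53.6 in shKdm5b cells. Its log2 ratio was -0.76 (-0.80 to -0.71), and 0.034 after the GC correction. *Lefty2* had 12412 reads and an RPKM of 64.5 in shLuc cells, and 11858 reads and an RPKM of 66.3 in shKdm5b cells, a log2 ratio of 0.039 (0.0023 to 0.075). Per length, *Lefty1* had 1.41 times the level of *Lefty2* in shLuc cells and 0.809 times its level in shKdm5b cells. This inverted order was seen only without correction, since the GC-corrected ratio in shKdm5b cells was 1.12, and 0.998 with length corrected as well. Without correction, *Lefty2* stood to *Nodal* at 3.00 times in shLuc cells and 2.93 times in shKdm5b cells, whereas *Lefty1* went from 4.22 times to 2.37 times the level of *Nodal*. After the GC correction the log2 ratios of *Lefty1* (0.034) and *Lefty2* (0.36) were both below that of *Nodal* (0.71). Of the 50-base windows of the *Lefty1* transcript 17.9% also occur in *Lefty2*, and 11.6% of the windows of *Lefty2* occur elsewhere, nearly all of them in *Lefty1*. Reads from these windows could be assigned to either gene or dropped, and how the authors treated them is not given in the sources used here.

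*Smad7*, which lies on chromosome 18 like *Smad2*, encodes the inhibitory SMAD that binds activated type I receptors. It had 7987 reads and an RPKM of 23.0 in shLuc cells, and 3734 reads and an RPKM of 11.6 in shKdm5b cells. This is 50.3% of the shLuc level and a log2 ratio of -0.99 (-1.05 to -0.94). After the GC correction the log2 ratio was -0.29, within 1.5-fold. In the shLuc library its level was above those of *Nodal* and *Smad2*, and in shKdm5b cells it was below both without correction.

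Read across the pathway, the order of levels in shLuc cells was *Tdgf1*, *Lefty1*, *Lefty2*, *Foxh1*, *Smad7*, *Nodal*, *Smad2*, *Acvr2b*, *Acvr1b* and *Smad3*. In the shKdm5b library it was *Tdgf1*, *Lefty2*, *Lefty1*, *Foxh1*, *Nodal*, *Smad2*, *Smad7*, *Acvr2b*, *Smad3* and *Acvr1b*. *Foxh1* and *Nodal*, neighbours in the latter order, both had 22.7 RPKM. *Acvr1b* was above *Smad3* in the former and the lowest of the set in the latter. These orders rest on RPKM without GC correction.

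The log2 ratio of the libraries was lower for transcripts of higher GC content, among the members as among all genes. Across 11535 genes above the RPKM threshold, which are not independent replicates, the Spearman correlation was -0.53, and across the 10 members it was -0.58. All points come from the same pair of libraries. The GC content of the members ran from 44.9% (*Smad2*) and 45.3% (*Tdgf1*) to 64.0% (*Acvr2b*). The GC correction subtracts the curve of this relation, and the log2 ratio of a gene then compares it with genes of similar GC content. The curve lay at -0.47 at the GC content of *Acvr1b* (53.5%) and at -0.99 at that of *Acvr2b*.

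After this correction, 1 of the 10 genes was lower and 2 were higher, while 36.7% of all genes passed, 18.1% lower and 18.6% higher. *Acvr1b* kept a log2 ratio of -1.38, and was the only one of the 4 genes to stay lower. *Acvr2b* had -0.21, *Smad7* -0.29 and *Lefty1* 0.034 (GC content 58.6%), beside 0.36 for *Lefty2* (51.5%). *Nodal* (55.9%) had a corrected log2 ratio of 0.71 and *Foxh1* (59.1%) had 0.60, both more than 1.5-fold higher than genes of similar GC content. With transcript length corrected as well, *Acvr1b* (-1.27) stayed lower and *Nodal* (0.69) stayed higher, *Foxh1* had 0.25, and 31.8% of all genes passed, 16.7% lower and 15.1% higher. The median of the 10 genes was 0.075 when GC content was corrected and 0.0068 when length was corrected too. The curves treat GC content as a technical property, and whether the relation arose in the libraries or in the cells was not tested. The GC content of *Smad2* was read from a transcript of 8089 bases, longer than the 2512 bases of its entry. Transcript and entry also differed for *Acvr1b* (4418 and 3277 bases), *Acvr2b* (2093 and 1701), *Foxh1* (1365 and 1208) and *Smad7* (4278 and 4441). For the other members the lengths differed less.

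**Figure D2:**
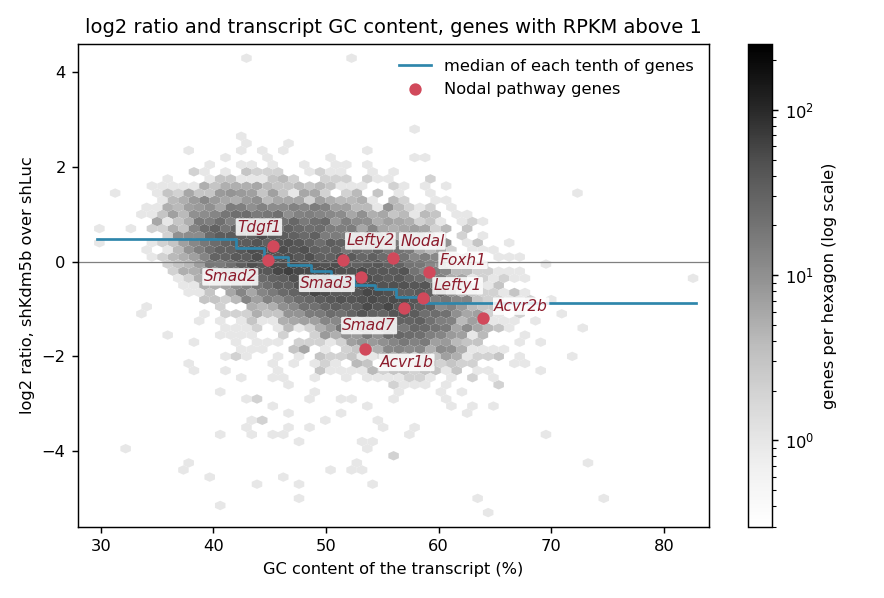
The log2 ratio of shKdm5b to shLuc (y axis) against the GC content of the transcript in percent (x axis) for 11535 genes with RPKM above 1, as grey hexagons by number of genes. The blue line is the median of each of 10 groups of genes by GC content, from 0.48 in the lowest group to -0.88 in the highest, and red points are the 10 Nodal pathway genes, with *Acvr1b* far below the line and *Nodal* above it.

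**Figure D3:**
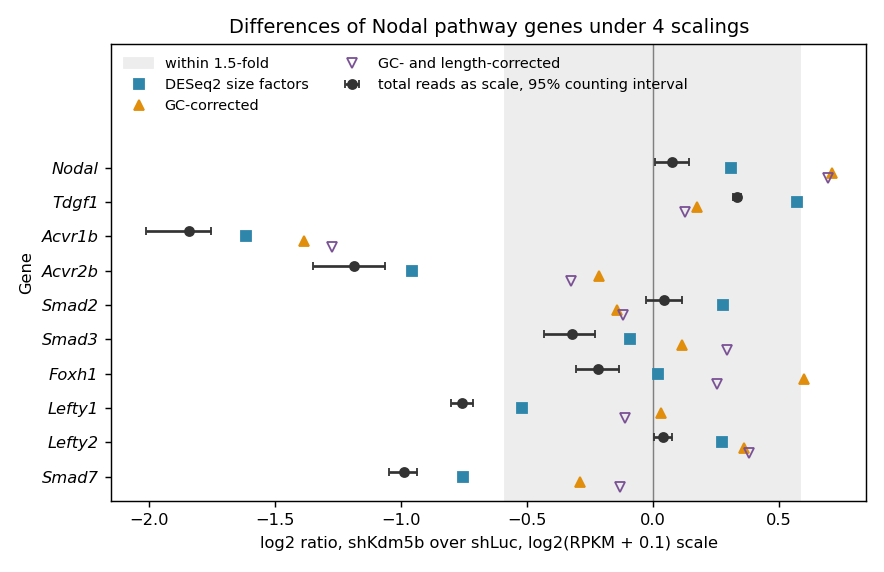
Log2 ratios of the 10 genes under each scaling (x axis), with the 95% counting interval (bars) on the values scaled to total reads and the range within 1.5-fold shaded. *Acvr1b* lies left of the shaded range under all 4 scalings, from -1.84 to -1.27, while *Acvr2b*, *Smad7* and *Lefty1* move into it after the GC correction.

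A list of 51 other genes of the Nodal and activin pathway was read in the same way. Of these, 35 had an RPKM above 1 in at least 1 library, of which 6 were higher and 8 were lower. Of all genes, 16.3% were higher and 32.0% were lower. The median log2 ratio was -0.10, beside -0.21 for all genes. After the GC correction 10 were higher and 2 were lower, with a median of 0.31, beside 18.6% and 18.1% of all genes. Under DESeq2 scaling 10 were higher and 5 were lower, beside 24.5% and 22.8% of all genes. The balance of higher and lower genes thus depended on the scaling. The same shares of all genes belong beside the counts by list below, the marker lists included.

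Of the 10 other ligands listed, most of which signal through SMAD2 and SMAD3, 4 had an RPKM above 1 and all 4 were lower. *Gdf3*, which signals through the same receptors and co-receptor as Nodal, had an RPKM of 23.0 (3789 reads) in shLuc cells and 14.2 (2179 reads) in shKdm5b cells, a log2 ratio of -0.69 (-0.77 to -0.62). *Inhbb*, which encodes the subunit of activin B, had an RPKM of 2.98 and 1.19, a log2 ratio of -1.26 (-1.50 to -1.15), and *Tgfb1* had 2.18 and 1.27, a log2 ratio of -0.74 (-1.04 to -0.53). *Gdf1*, the partner of Nodal in heterodimers, had an RPKM of 9.86 and 3.82, a log2 ratio of -1.35 (-1.54 to -1.20), but all bases of its transcript overlap exons of *Cers1* or *Upf1*, and the reads of these genes cannot be told apart. After the GC correction the log2 ratios were -0.52 for *Gdf3*, -0.35 for *Gdf1*, -0.42 for *Inhbb* and 0.16 for *Tgfb1*, all within 1.5-fold (*Gdf1* had -0.59 with length corrected as well), and under DESeq2 scaling *Gdf3* (-0.45) and *Tgfb1* (-0.52) were within it as well.

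The proprotein convertases, a family of which some members cleave the Nodal precursor, were lower for 2 of 4 listed genes, with 3 above the RPKM threshold. *Pcsk6* (PACE4) had an RPKM of 9.07 (3049 reads) in shLuc cells and 4.13 (1290 reads) in shKdm5b cells, a log2 ratio of -1.12 (-1.23 to -1.04). *Pcsk7* had 2.65 and 0.941, a log2 ratio of -1.40 (-1.70 to -1.29). *Furin*, which with *Pcsk6* is known to process Nodal in the embryo, had 5.54 and 4.66, a log2 ratio of -0.25 (-0.35 to -0.15). Only *Pcsk7* stayed lower after the GC correction, at -0.81 (13.1% of its bases overlap exons of *Rnf214* or *Tagln*), with *Pcsk6* at -0.50 and *Furin* at 0.55. With length corrected too, *Furin* passed 1.5-fold in the other direction, at 0.70.

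Of the 5 secreted or membrane antagonists, 1 was higher, 0 were lower and 3 others with an RPKM above 1 stayed within 1.5-fold. Of these 3, *Fstl3* passed it after the GC correction, at 0.98, but 59.2% of its transcript overlaps exons of *Prss57* on the other strand. *Fst*, which encodes follistatin, an inhibitor of activins, had an RPKM of 1.05 (191 reads) in shLuc cells and 2.64 (448 reads) in shKdm5b cells, a log2 ratio of 1.26 (1.09 to 1.59) that was 1.60 after the GC correction. *Cer1*, a secreted Nodal antagonist, had 34 reads in shLuc cells against 0 reads in shKdm5b cells. The upper end of its counting interval was a log2 ratio of -3.02. Its RPKM of 0.250 in shLuc cells lay below the RPKM threshold.

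The 7 SMAD partners and cofactors, *Smad4* among them, all stayed within 1.5-fold when scaled to total reads, from -0.56 to 0.46. *Smad4* and *Rnf111* passed it under DESeq2 scaling, and *Med15* after the GC correction, at 0.65. With length corrected as well, *Crebbp* (0.83), *Med15* (0.77), *Smad4* (0.67) and *Rnf111* (0.60) passed it. Of the 12 intracellular inhibitors, 11 had an RPKM above 1, of which 3 were higher and 2 were lower. *Dact2*, whose product promotes the degradation of Nodal receptors, had an RPKM of 7.15 (1569 reads) in shLuc cells and 1.99 (407 reads) in shKdm5b cells, a log2 ratio of -1.79 (-2.003 to -1.68) that was -0.97 after the GC correction. *Tgif1*, a co-repressor of SMAD2, was the most abundant gene of the list, with an RPKM of 142 and 248 and a log2 ratio of 0.81 (0.78 to 0.84). *Smurf2*, a ubiquitin ligase of the pathway, had 8.22 and 15.0, a log2 ratio of 0.86 (0.80 to 0.93). *Tgif1* and *Smurf2* were more than 1.5-fold higher also after the GC correction, at 0.80 and 0.84, but with length corrected too *Tgif1* had 0.54, within 1.5-fold. The counts are completed by *Pmepa1* (0.67) and *Drap1* (-0.61), named here after their values were seen. *Drap1* was within 1.5-fold under DESeq2 scaling (-0.38) and changed sign after the GC correction (0.27).

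Of 7 developmental target genes, 3 had an RPKM above 1. *Eomes*, a T-box factor of the primitive streak and definitive endoderm, was higher, with an RPKM of 2.45 (700 reads) in shLuc cells and 4.05 (1076 reads) in shKdm5b cells and a log2 ratio of 0.70 (0.59 to 0.86), or 1.43 after the GC correction. Below the RPKM threshold, *Lhx1*, a homeobox gene, had 139 reads in shLuc cells and 13 reads in shKdm5b cells (-4.26 to -2.49). *Foxa2*, a forkhead gene of endoderm and axial mesoderm, had 103 and 55 reads (-1.30 to -0.31). Both were named after their values were seen. After the GC correction *Lhx1* had a log2 ratio of -1.98, whereas that of *Foxa2* went from -0.66 to -0.079, within 1.5-fold.

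**Figure D4:**
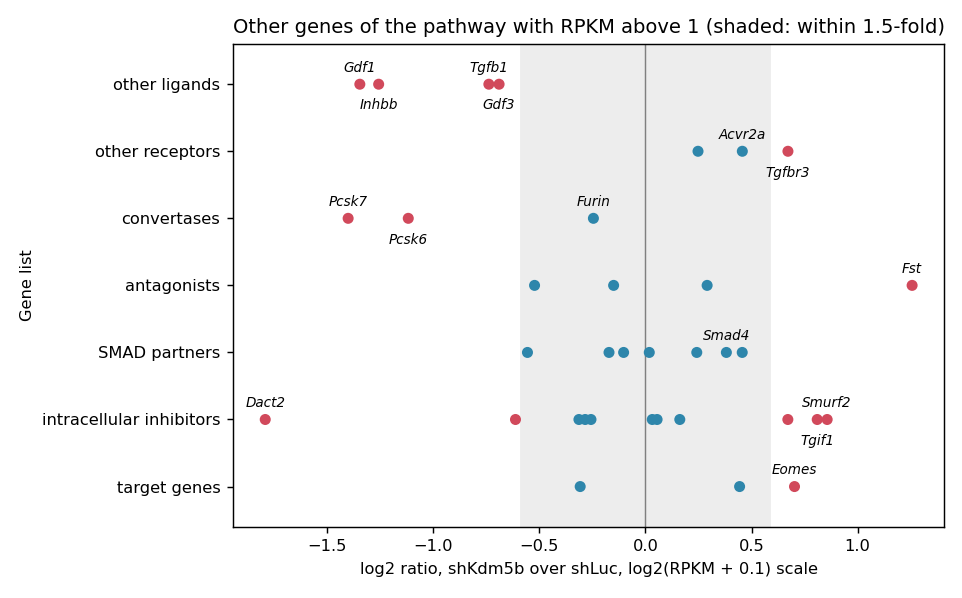
Log2 ratios of shKdm5b to shLuc (x axis) for the 35 other pathway genes with RPKM above 1, by list (y axis), with genes outside 1.5-fold in red and named genes labelled. All 4 ligands shown lie to the left of the shaded range, the 7 SMAD partners lie within it, and the intracellular inhibitors fall on both sides. The values are scaled to total reads. Of the ligands and SMAD partners, *Gdf3* and *Tgfb1* fall within the range and *Smad4* and *Rnf111* outside it under DESeq2 scaling. Of the SMAD partners, *Med15* lies outside it after the GC correction, and *Crebbp* also does once length is corrected as well.

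Marker genes of the cell types that the cultures could hold were read beside these results. All 8 ES cell markers had an RPKM above 1, of which 1 was higher (*Dppa5a*) and 3 were lower (*Pou5f1*, *Tdh* and *Esrrb*), with summed levels of 2790.0 RPKM and 2736 RPKM. These sums hold *Dppa5a* at 1096 RPKM in shLuc cells and 1651 RPKM in shKdm5b cells, and *Pou5f1* at 619 RPKM and 182 RPKM. After the GC correction *Esrrb* was within 1.5-fold, at -0.31, and *Utf1* was higher, at 0.68. With length corrected as well, *Utf1* (0.30) and *Dppa5a* (-0.032) were within 1.5-fold. The markers of primitive or visceral endoderm had summed levels of 28.3 RPKM in shLuc cells and 4.49 RPKM in shKdm5b cells, and all 5 of the 7 with an RPKM above 1 were lower, with *Afp* at 65 reads and 0 reads. The 5 had GC-corrected log2 ratios from -3.53 (*Ttr*) to -1.11 (*Gata6*). *Cer1* and *Lefty1* are known to be active in the visceral endoderm of the embryo as well, and the part of that cell type in their lower levels was not tested. Of the 10 fibroblast markers, 1 (*Thy1*) had an RPKM above 1, and their summed levels were 5.64 RPKM and 6.43 RPKM. *Thy1* stayed within 1.5-fold when scaled to total reads. It was higher after the GC correction, at 0.78, and with length corrected as well, at 0.68. Fibroblast markers below the threshold went both ways, with *S100a4* at 6 reads and 0 reads, *Postn* at 3 and 0, *Dcn* at 17 and 43 and *Pdgfrb* at 212 and 322. Of the 5 neural markers, 1 was higher (*Nes*) and 1 was lower (*Sox3*), with summed levels of 11.8 RPKM and 11.4 RPKM. After the GC correction *Sox3* had 0.20, within 1.5-fold, while *Nes* (1.43) and *Sox1* (1.23) were higher. Of the 6 blood markers, 1 had an RPKM above 1 and was higher, *Cd68*, at 3.73 RPKM and 22.4 RPKM of summed levels of 4.33 RPKM and 22.6 RPKM. *Sfpi1* had 46 reads in shLuc cells against 19 in shKdm5b cells, *Gata1* had 22 against 6, and *Hbb-bh1* had 0 reads in both.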

How the data were processed

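Total polyadenylated RNA of 1 shLuc and 1 shKdm5b library was sequenced by the authors. The submitters' processing notes name CASAVA 1.0, Bowtie 0.12.7 and the build mm8. The counting program and its strand setting are not given in the sources used here. For 27405 RefSeq entries the authors deposited a whole-number read count and an RPKM, which equals the count normalized to entry length and to all aligned reads (78172698 and 72702698), as checked on the files. The aligned reads, deposited with a column of read length (50), were used for these totals only.

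Of several entries for a symbol, the one highest in mean RPKM was used. A sixth column of unstated meaning was not used. Log2 ratios took a pseudocount of 0.1. With 1 library per condition, edgeR's quasi-likelihood test could not be fitted, and no p-value is given. GC content and coordinates came from GENCODE M21 (GRCm38) through the accession, for 97.7% of the compared genes. Coordinates describe the genes, not the alignment. Corrections used lowess curves (fraction 0.3, statsmodels 0.14.6) fitted on genes with RPKM above 1. Alternatives used edgeR 4.0.16 (exact test, assumed dispersion) and DESeq2 1.42.0 (size factors). Shared 50-base windows were counted over GENCODE transcripts. Steps were tested on simulated data. The members and lists were chosen with earlier results of these data known. Named pathway genes were 8 that act directly on Nodal, its receptors or its SMADs, and the 12 with the largest log2 ratio past the thresholds. The time of 72 h is from the series' design text. The earlier time point was not analysed here. Some items covered by the lists are not reported here.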

Additional observations from a re-analysis of the deposited data

How the results depend on the processing

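No paired analysis was possible because the labels give 1 library for shLuc and 1 for shKdm5b cells, which also leaves no replicate to omit. The count of 4 members past the thresholds was 3 or 4 under 9 alternatives, though under the GC correction they were *Acvr1b* lower and *Nodal* and *Foxh1* higher. It was 2 after the GC and length correction (*Nodal* higher, *Acvr1b* lower), 2 with RPKM above 11 (*Lefty1* and *Smad7*), 2 with a fold change above 2 (*Acvr1b* and *Acvr2b*), and 0 with edgeR's exact test on reads at an assumed dispersion of 0.04. The dispersion between cultures was not measured. DESeq2 scaling split all genes past the thresholds into 2890 higher and 2697 lower, against 1921 and 3781 without it. After the GC correction the log2 ratio changed sign for *Lefty1* (0.034), *Foxh1* (0.60), *Smad3* (0.12) and *Smad2* (-0.14), and under DESeq2 (0.018) and TMM (0.0015) scaling for *Foxh1*. The median log2 ratio of the members, -0.27, was -0.24 with a pseudocount of 1, -0.037 with DESeq2 size factors, -0.053 with TMM factors, 0.075 with GC content corrected and 0.0068 with length corrected as well.

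The count of 14 other pathway genes past the thresholds was 4 with RPKM above 11 (*Gdf3*, *Tgif1*, *Drap1* and *Smurf2*), 6 with a fold change above 2 (only *Fst* of them higher), 0 at a dispersion of 0.04, and from 10 to 20 otherwise. The 5702 genes of the whole table past the thresholds became 3669 after the GC and length correction, 2678 with RPKM above 11, 2688 with a fold change above 2 and 284 at a dispersion of 0.04. For *Kdm5b* the value of -5.07 became -4.72 at a pseudocount of 1, -4.84 with DESeq2 size factors, -4.86 with TMM factors and -4.84 with GC content and length corrected. The cause of these changes was not tested. Counting error is small for the members. The missing replicate limits every difference, and which members passed the thresholds also depended on the scaling and the GC correction.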
